A study of Mus musculus with 9 samples.

Results

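Genes that store iron, break down heme, take up iron or handle selenium were examined in distal tail skin of mice with acquired lymphedema. The 6 genes are given by name: Ftl1 and Fth1, which encode the light and heavy chains of ferritin, Hmox1 (heme oxygenase 1), Tfrc (transferrin receptor 1), Selenop (selenoprotein P) and Selenbp1 (selenium-binding protein 1). They made up 6 of the 8644 named genes tested, and 25 of the 42624 features of the array. The features were cDNA clones spotted on glass, with 8 clones for Ftl1, 6 for Fth1, 4 for Selenop, 3 for Tfrc and 2 each for Hmox1 and Selenbp1. Of these clones 22 had a value on all 9 arrays.

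Lymphedema was produced in hairless female SKH-1 mice, which the study describes as 3 weeks old, by cutting the tail skin around its circumference and cauterizing the lymphatic trunks. Sham mice had the skin cut and the dye methylene blue injected, without cautery, and normal mice had no surgery, so the sham comparison keeps the wound and leaves out the cautery. Skin was taken on day 14 from 9 mice of each state, combined into 3 pools of 3 mice, and every pool went on 1 array beside a common RNA from whole e17.5 mouse embryos (n = 3 pools per state). Tail skin is a mixture of cells, so a change in a cell type's abundance and a change in RNA per cell cannot be told apart.

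Each value below is a log2 ratio of tail skin RNA to embryo RNA, after every array was centered on its median, so that a positive level means more of the transcript in tail skin than in the embryo. A difference of 1 on this scale is a doubling. The labels and the methods disagree on which dye marked the tail skin. The direction was taken from 31 or 32 genes typical of embryos, of which 30 to 32 lay above the median of the deposited ratios on each array, and from 17 genes typical of adult skin, of which 14 to 16 lay below it. The log base is not stated and was read as log2, on which the folds depend but the directions and the tests do not. Since each clone is set against its own embryo signal, levels are compared between states for the same gene and not between genes.

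Ferritin is a hollow shell built of heavy and light chains that holds iron in a form cells can keep safely. The heavy chain oxidizes ferrous iron as it enters, and the light chain helps the mineral core to form. Transferrin receptor 1 brings iron into the cell, and when iron is scarce, iron regulatory proteins stabilize its mRNA while they block translation of ferritin mRNA, so ferritin protein can change without its mRNA. Heme oxygenase 1 opens the heme ring and releases iron, carbon monoxide and biliverdin, and macrophages use it when they digest red cells. Selenoprotein P is a secreted protein that carries selenium between tissues in the form of selenocysteine. Selenium-binding protein 1 binds selenium without containing selenocysteine, and acts as a methanethiol oxidase.

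Bases upstream of a transcript start are shown for the 4 genes that passed the test between lymphedema and normal skin. Of these genes 3 were higher and 1 was lower. Each window holds the 250 bases before the most downstream transcript start listed by RefSeq (GRCm38.p6), read 5' to 3' on the gene's own strand. The Fth1 window lies within the gene span given below, and the Selenop window overlaps the start of its span. Capitals mark CCAAT (the NF-Y box), GGGCGG (the GC box bound by Sp1) and TGACNNNGC (the core of the element bound by NRF2), searched on both strands.
Ftl1, chr7:45459887-45460136, minus strand: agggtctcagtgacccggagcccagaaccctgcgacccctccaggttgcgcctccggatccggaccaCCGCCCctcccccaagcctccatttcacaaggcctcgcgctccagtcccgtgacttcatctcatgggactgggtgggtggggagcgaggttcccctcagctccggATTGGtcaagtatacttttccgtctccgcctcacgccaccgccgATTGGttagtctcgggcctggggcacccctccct
Fth1, chr19:9982396-9982645, plus strand: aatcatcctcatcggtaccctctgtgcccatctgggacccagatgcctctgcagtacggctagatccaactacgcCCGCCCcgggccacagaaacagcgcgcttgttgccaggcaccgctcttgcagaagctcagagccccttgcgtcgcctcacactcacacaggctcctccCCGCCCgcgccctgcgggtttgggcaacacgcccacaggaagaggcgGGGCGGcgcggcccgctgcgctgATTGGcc
Selenop, chr15:3270727-3270976, plus strand: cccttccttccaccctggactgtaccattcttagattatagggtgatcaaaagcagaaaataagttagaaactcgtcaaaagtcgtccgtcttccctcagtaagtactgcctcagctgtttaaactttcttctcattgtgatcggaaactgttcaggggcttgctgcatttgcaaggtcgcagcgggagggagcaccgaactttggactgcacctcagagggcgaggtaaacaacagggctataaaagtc
Selenbp1, chr3:94932833-94933082, plus strand: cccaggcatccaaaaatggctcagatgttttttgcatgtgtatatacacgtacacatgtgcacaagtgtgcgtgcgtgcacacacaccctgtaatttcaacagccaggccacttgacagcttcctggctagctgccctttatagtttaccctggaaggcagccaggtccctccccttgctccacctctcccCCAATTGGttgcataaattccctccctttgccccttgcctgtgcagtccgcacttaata
Upstream of Ftl1 there were 2 CCAAT matches and 1 GGGCGG match, and upstream of Fth1 1 CCAAT and 3 GGGCGG matches. Selenop had no match to either, and Selenbp1 had 2 CCAAT matches, 1 on each strand, that overlap in CCAATTGG. TGACNNNGC was in none of the 4 windows. Of 32851 RefSeq windows of this length, 33.8% held CCAAT, 32.7% GGGCGG and 10.2% TGACNNNGC. A match is a run of letters and was not tested for binding, nor was its part in the differences between states tested.

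In lymphedema, the ferritin chains and selenoprotein P were higher than in normal skin and Selenbp1 was lower. Of the 6 genes, 4 passed in limma (Benjamini-Hochberg adjusted p below 0.05), 3 of them higher and 1 lower, where 297 of all 8644 genes passed (3.44%, with 2.83% higher and 0.602% lower). These 4 genes also had groups that did not overlap, which 33.8% of all genes had in this comparison. The median difference was 0.68 over the 6 genes and 0.10 over all genes. The 6 genes were chosen with earlier results of these data known, so setting them beside all genes is a description and not a test. Hmox1 and Tfrc did not pass.

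**Figure D1:**
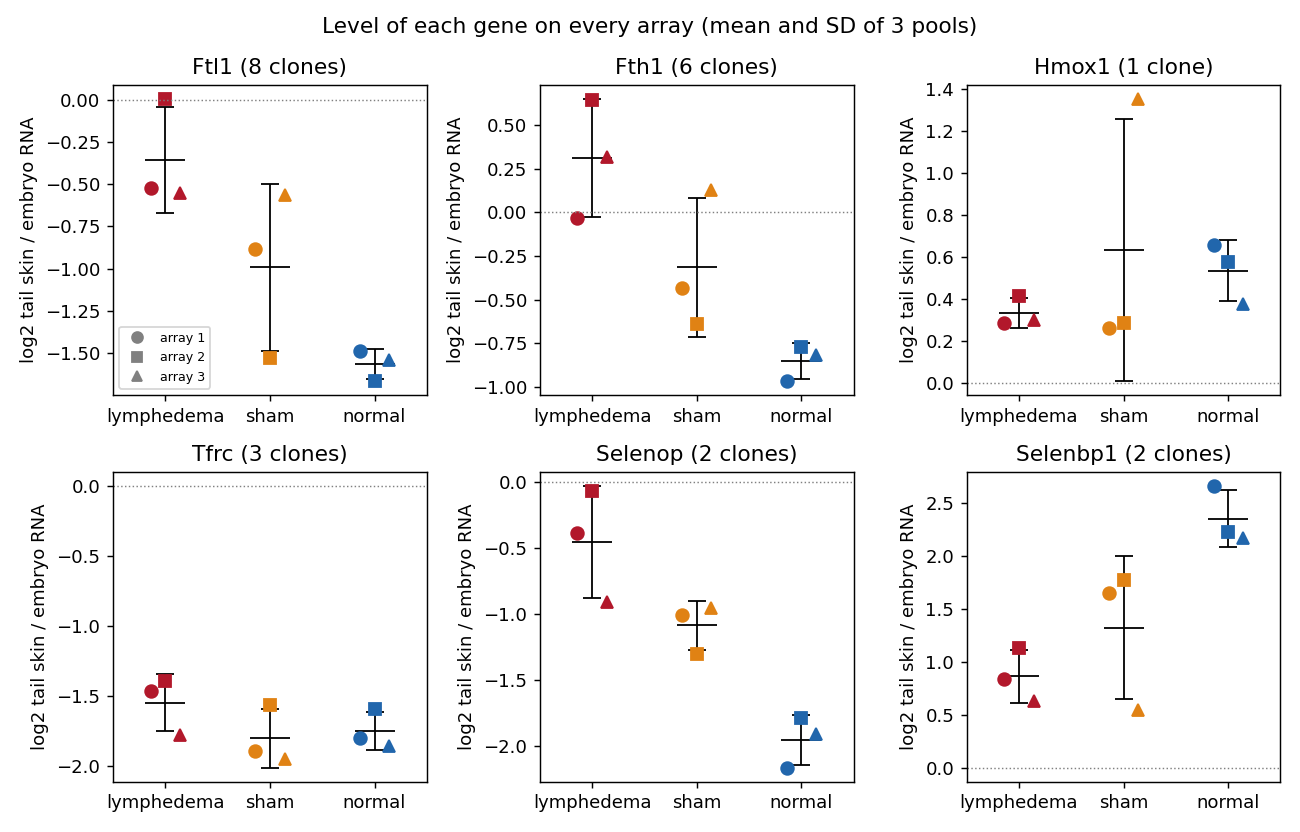
Level of each gene on every array, as the log2 ratio of tail skin to embryo RNA (vertical axis), for lymphedema, sham and normal skin from left to right. Symbols mark the 3 arrays of a state, and lines and bars the mean and SD. Lymphedema lies above normal skin on all arrays for Ftl1, Fth1 and Selenop and below it for Selenbp1, with sham means between.

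The light chain gene Ftl1 (chromosome 7, 45457944 to 45459886, minus strand, GRCm38.p6) had levels of −0.53, 0.00 and −0.55 in lymphedema, −0.88, −1.53 and −0.56 in sham and −1.49, −1.66 and −1.54 in normal skin. The lymphedema arrays all lay above the normal arrays, and the third sham array lay close to the lymphedema arrays while the second sham array lay among the normal ones. Means were −0.36 ± 0.313 in lymphedema, −0.99 ± 0.494 in sham and −1.56 ± 0.0907 in normal skin (SD, n = 3 each), which set the transcript at 0.78, 0.503 and 0.338 times its embryo level. The difference between lymphedema and normal skin was 1.21 ± 0.25 (SE), a 2.31-fold higher level (95% interval of the log2 difference 0.66 to 1.75, limma adjusted p = 0.0294).

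The heavy chain gene Fth1 (chromosome 19, 9980600 to 9985111, plus strand) followed a like course. Its levels were −0.03, 0.64 and 0.32 in lymphedema, −0.43, −0.64 and 0.13 in sham and −0.96, −0.77 and −0.82 in normal skin. All 6 operated arrays lay above the 3 normal arrays, and the third sham array lay among the lymphedema values. Lymphedema averaged 0.31 ± 0.338, sham −0.31 ± 0.398 and normal skin −0.85 ± 0.102 (SD, n = 3 each). Fth1 was thus 2.23-fold higher in lymphedema than in normal skin (log2 difference 1.16 ± 0.234, SE, 95% interval 0.64 to 1.67, limma adjusted p = 0.0288).

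Across the 9 arrays the profiles of the ferritin chains, each taken around its own mean, differed by a root mean square of 0.165, against a median of 0.589 between Ftl1 and all other genes. This is a description over 9 arrays that share the 3 states and the same RNA pools. By the same measure the genes nearest to Ftl1 were Renbp (0.13), Csrp2 (0.134) and 5530601H04Rik (0.144), and those nearest to Fth1 were Ifitm2 (0.119), H2-Q5 (0.132) and Arhgdib (0.134).

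Selenop (chromosome 15, 3270767 to 3280510, plus strand) gave the smallest p of the 6 genes, rank 19 of 8644. Its levels were −0.39, −0.06 and −0.91 in lymphedema, −1.01, −1.30 and −0.95 in sham and −2.17, −1.79 and −1.91 in normal skin. The 3 states did not overlap, with sham between lymphedema and normal skin, although lymphedema 3 and sham 3 differed little. Mean levels were −0.45 ± 0.428 in lymphedema, −1.09 ± 0.187 in sham and −1.96 ± 0.192 in normal skin (SD, n = 3 each). The transcript was 2.83-fold higher in lymphedema than in normal skin, with a log2 difference of 1.50 ± 0.227 (SE, 95% interval 1.01 to 2.00, limma adjusted p = 0.0137).

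Selenbp1 (chromosome 3, 94933083 to 94944758, plus strand) ran the other way. It stood at 0.84, 1.13 and 0.63 in lymphedema, 1.65, 1.77 and 0.55 in sham and 2.66, 2.23 and 2.17 in normal skin. Every operated array lay below every normal array, and the lowest value belonged to the third sham array. Lymphedema averaged 0.86 ± 0.25, sham 1.32 ± 0.675 and normal skin 2.35 ± 0.269 (SD, n = 3 each), so the transcript stood at 1.82, 2.50 and 5.10 times its embryo level. The difference between lymphedema and normal skin was −1.49 ± 0.302 (SE, 95% interval −2.15 to −0.83, limma adjusted p = 0.0288), a 2.81-fold lower level. The near-copy gene Selenbp2 shares 85.1% of 262 aligned upstream columns with Selenbp1. These columns lie before the transcript start, and no transcript sequences were compared. The cDNA clones may not separate the transcripts of Selenbp1 and Selenbp2, which was not tested. The same doubt holds for ferritin pseudogenes.

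Tfrc (chromosome 16, 32608896 to 32632794, plus strand) had levels of −1.47, −1.40 and −1.78 in lymphedema, −1.89, −1.57 and −1.95 in sham and −1.80, −1.60 and −1.86 in normal skin. The 3 states overlapped. The difference between lymphedema and normal skin was 0.20 ± 0.184 (SE, limma adjusted p = 0.573), and its 95% interval of −0.20 to 0.61 leaves room for a change of either sign.

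Hmox1 (chromosome 8, 75093618 to 75100593, plus strand) was measured by a pair of clones that gave different answers. Clone M33203, the one with a value on all 9 arrays, had 0.28, 0.42 and 0.30 in lymphedema, 0.26, 0.29 and 1.35 in sham and 0.66, 0.57 and 0.37 in normal skin. Its difference between lymphedema and normal skin was −0.20 (95% interval −0.78 to 0.38, limma adjusted p = 0.714 over genes). Clone BG064393, which had no value on lymphedema 2, stood at 1.05 and 0.93 in lymphedema, 0.16, 0.52 and 1.26 in sham and −0.17, −0.07 and 0.11 in normal skin. On this clone both measured lymphedema arrays lay above all 3 normal arrays. A fit over the 39086 features with at least 2 values per state, run after the values had been seen, put the difference at 1.03 ± 0.315 (SE, 95% interval 0.35 to 1.71, limma adjusted p = 0.11 over those features). The clones differed in sign between lymphedema and normal skin, and sham 3 was the highest array on both. No direction for Hmox1 can therefore be given from these arrays. The study, working from the same arrays, cites upregulation of heme oxygenase 1 as added evidence of oxidative stress. Clone BG064393 had that direction between lymphedema and normal skin, and clone M33203 did not.

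The other genes had several clones each, which share their target and the same RNA and so are not replicates of a state. Fitted feature by feature over 30702 features, of which 902 passed between lymphedema and normal skin (2.94%, with 2.3% higher and 0.635% lower), 13 of the 22 clones passed. All 8 Ftl1 clones were higher in lymphedema, by 0.25 to 1.63, and 6 passed. The lowest was AV094660, whose lymphedema levels of −0.32, 0.29 and 0.06 overlapped its normal levels of −0.11, −0.17 and −0.43. The highest was AV002354, at 0.91, 0.89 and 0.48 in lymphedema and −0.69, −0.79 and −1.13 in normal skin (limma adjusted p = 0.00759 over features). All 6 Fth1 clones were higher, by 0.91 to 1.36, and 3 passed.

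For Selenop, clones BG075853 and AI327046 were higher in lymphedema by 1.72 and 1.28 and both passed (limma adjusted p = 0.00334 and 0.0229 over features). A further clone, AV109568, lacked a value on lymphedema 2 and sham 3 and ran the other way, at −0.23 and −0.85 in lymphedema and −0.24, 0.10 and −0.48 in normal skin, a difference of −0.34 ± 0.294 (SE, limma adjusted p = 0.579). Clone AI838693 had values on the 3 normal arrays only and gives no comparison. Both Selenbp1 clones were lower in lymphedema, by −1.50 and −1.47 on the log2 scale, and both passed. The 3 Tfrc clones differed by 0.03 to 0.37 and none passed (unadjusted p of the gene under 0.05 in no comparison).

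**Figure D2:**
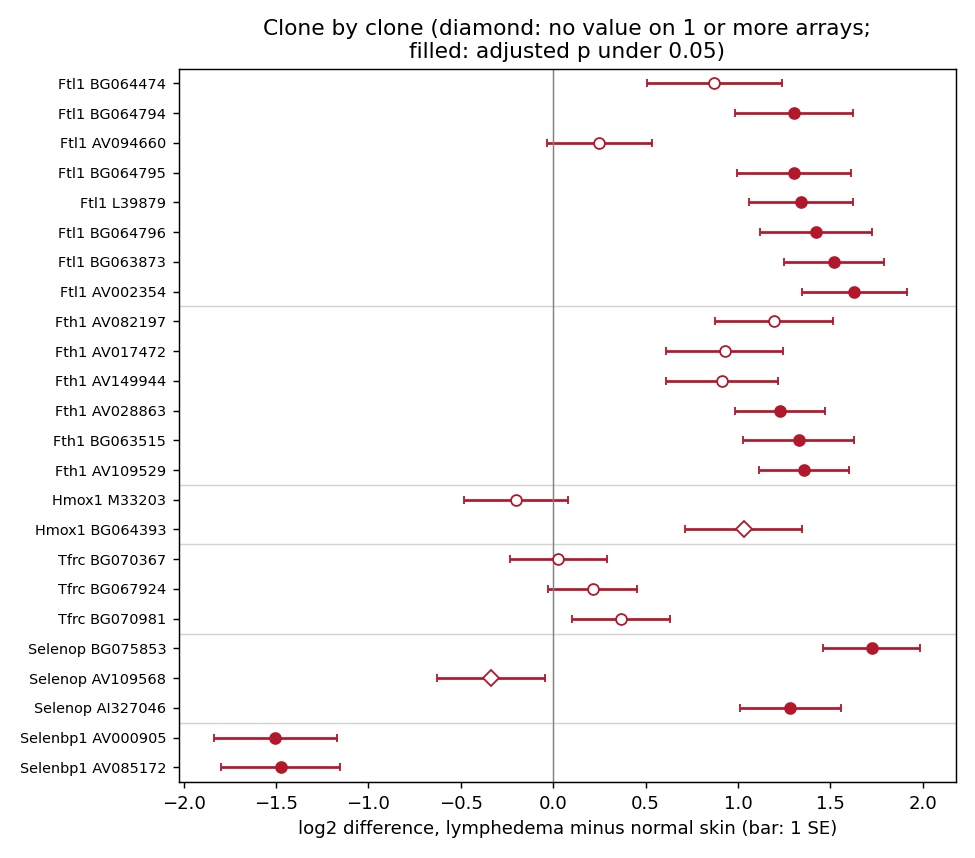
Difference between lymphedema and normal skin for each clone, in log2 units (horizontal axis), with bars of 1 SE. Filled symbols passed at an adjusted p under 0.05 in limma, and diamonds mark clones without a value on 1 or more arrays, such as Hmox1 clone BG064393 at 1.03 and Selenop clone AV109568 at −0.34.

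Set against sham skin, which shares the skin wound, lymphedema showed the same order of means for the ferritin chains, Selenop and Selenbp1, but no gene of the 6 passed. In that comparison 2 of all 8644 genes passed in limma (0.0231%, with 0.0116% higher and 0.0116% lower), and no clone of the 6 genes passed where 1 of 30702 features did, a lower one (0.00326%). Of all genes 643, with 3 of the 6 among them, had an unadjusted p under 0.05. The log2 difference was 0.63 for Ftl1 (95% interval 0.08 to 1.18, limma adjusted p = 0.643), 0.62 for Fth1 (0.11 to 1.14, adjusted p = 0.607) and 0.63 for Selenop (0.14 to 1.13, adjusted p = 0.57). Selenbp1 differed by −0.46, with an interval of −1.12 to 0.20 (limma adjusted p = 0.743). Lymphedema lay wholly above sham for Ftl1 and Selenop, while 10.3% of all genes had groups that did not overlap here. For Ftl1 the gap was small, with a lowest lymphedema level of −0.552 and a highest sham level of −0.562. Selenop clone AV109568, which lacked values and was not in the gene's mean, ran the other way. It differed by −0.735 (95% interval −1.43 to −0.04, limma adjusted p = 0.705 over features).

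Between sham and normal skin, which differ by the incision and the dye injection, none of the 6 genes passed, nor did any of the 8644 genes in limma (0%), with 685 genes, 4 of the 6 among them, at an unadjusted p under 0.05. No clone of the 6 genes passed, where 6 of 30702 features did, all of them higher (0.0195%). Sham differed from normal skin by 0.57 for Ftl1 (95% interval 0.02 to 1.12), 0.53 for Fth1 (0.02 to 1.05), 0.87 for Selenop (0.37 to 1.37) and −1.03 for Selenbp1 (−1.69 to −0.37), with limma adjusted p of 0.596, 0.596, 0.33 and 0.386. Fth1 and Selenop lay above normal skin on all sham arrays and Selenbp1 below it, where 12.8% of all genes did not overlap. These 3 comparisons share their arrays, so their values are not independent of each other.

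**Figure D3:**
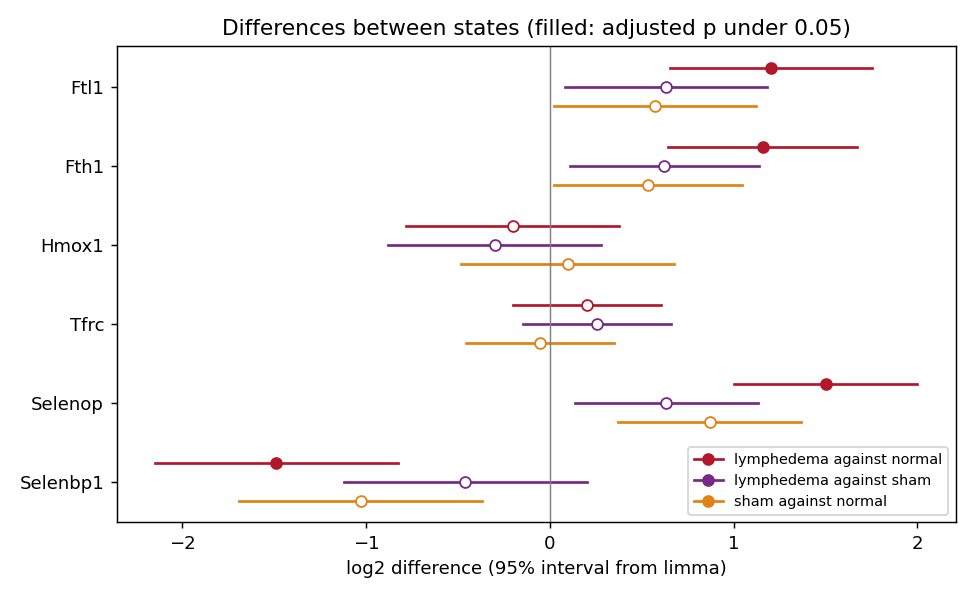
Differences between states for the 6 genes, in log2 units (horizontal axis), with 95% intervals from limma. Filled points, which are Ftl1, Fth1, Selenop and Selenbp1 between lymphedema and normal skin, passed at an adjusted p under 0.05.

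The sham arrays differed among themselves. Ftl1 deviated from the normal mean by 0.68, 0.03 and 1.00 on sham 1, 2 and 3, with sham 2 farthest from the others. Fth1 deviated by 0.42, 0.21 and 0.98, and Selenbp1 by −0.70, −0.58 and −1.81, with sham 3 farthest from the others on both.

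The values against sham moved with single arrays, while none of the 6 genes passed with any array left out. Without sham 3, lymphedema differed from sham by 0.85 for Ftl1, 0.85 for Fth1, 0.70 for Selenop and −0.85 for Selenbp1, and 96 of all genes passed in place of 2. Without sham 2 these differences were 0.36, 0.46, 0.53 and −0.24, and without sham 1 Selenbp1 differed by −0.29. Without sham 2 or without lymphedema 2, 0 of the 6 genes had an unadjusted p under 0.05 in limma, in place of 3. Between sham and normal skin, the differences without sham 3 were 0.36 for Ftl1, 0.31 for Fth1, 0.80 for Selenop and −0.64 for Selenbp1. The arrays were also put in 2 sets as a block, normal 1 to 3 and lymphedema 1 against the other 5. Sham then differed from normal skin by 0.32 for Ftl1, 0.02 for Fth1, 0.97 for Selenop and −1.07 for Selenbp1. No set held both sham and normal arrays, so these values rest on lymphedema 1 as the link. Between lymphedema and sham the same block gave 0.72, 0.80, 0.60 and −0.45 for these genes. When clones with at least 2 values per state were included, Selenop differed by 0.36 between lymphedema and sham and by 0.59 between sham and normal skin.

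The third sham array also differed from the other sham arrays in markers of other cells. Its median deviation from the normal mean was 1.56 over 12 skeletal muscle markers, against 0.24 and 0.47 on sham 1 and 2, and 0.79 over 15 macrophage and monocyte markers, against 0.32 and 0.11. The part of these markers in the levels of the 6 genes was not tested.

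Macrophage and neutrophil markers also moved with the lymphedema arrays, and to some extent with the sham arrays. Beside the counts that follow, 3.44% of all genes passed between lymphedema and normal skin (2.83% higher and 0.602% lower). Of 15 measured macrophage and monocyte markers 7 rose in lymphedema against normal skin (Lyz2, C1qa, C1qc, Aif1, Ccr2, Fcgr1 and Fcer1g), and the median difference was 0.98. The list's median deviation was 0.78, 0.75 and 1.03 on the lymphedema arrays and −0.04 to 0.04 on the normal arrays. Of 9 neutrophil markers 4 rose, with a median of 0.83, and 7 of the 9 differences were positive. Their median deviation was 0.81, 1.05 and 0.99 on the lymphedema arrays and 0.38, 0.36 and 0.51 on the sham arrays. Lcn2 and Ltf belong to this list and also to the iron genes described below. Macrophages hold much ferritin, and the part of these cells in the ferritin levels was not tested. Among 8 red cell markers none passed, with a median of 0.29 and deviations of 0.62, 0.36 and −0.07 on the lymphedema arrays. Of 16 fibroblast markers Fbln1 and Vim rose (median 0.50), as did Kdr and Eng among 7 markers of blood and lymphatic endothelium (median 0.55, with deviations of 0.46, 0.68 and 0.50 on the lymphedema arrays and 0.37, 0.04 and 0.72 on the sham arrays). Of 19 markers of dividing cells Ccnb2 and Aurkb rose (median 0.25), and none of 12 skeletal muscle markers passed (median 0.32). None of 12 keratinocyte markers passed and their median was −0.0025, and none of 11 adipocyte markers did (median 0.26). The median keratinocyte marker stood above its embryo level on every array, by 2.00 to 2.41 in lymphedema, 2.17 to 2.59 in sham and 2.10 to 2.41 in normal skin. Between lymphedema and sham no marker of these lists passed, where 0.0231% of all genes did. The median differences there were 0.555 for macrophage and monocyte markers, 0.69 for neutrophil markers and 0.21 for fibroblast markers. Fibroblast markers deviated from the normal mean by 0.24, 0.07 and 0.79 on sham 1, 2 and 3.

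**Figure D4:**
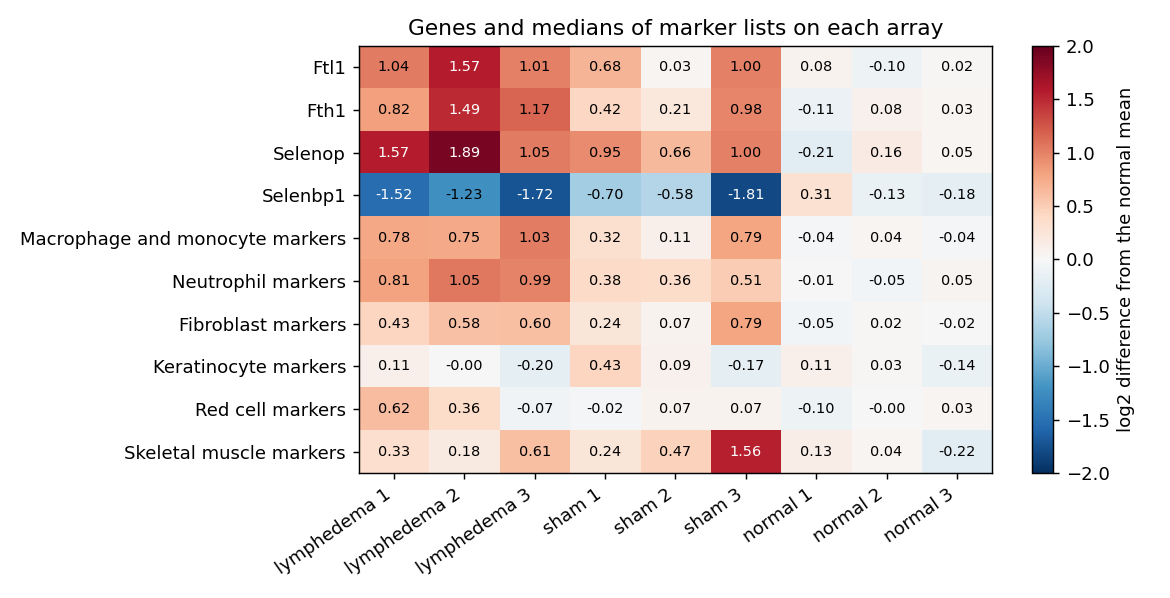
Difference from the normal mean on each array, in log2 units (color), with lymphedema, sham and normal arrays from left to right. Rows are Ftl1, Fth1, Selenop, Selenbp1 and the medians of marker lists. Macrophage markers reach 1.03 on lymphedema 3 and 0.79 on sham 3, and muscle markers reach 1.56 on sham 3.

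Of 22 further genes of iron uptake, storage, export and its control measured among 46, 1 rose in lymphedema against normal skin and none fell, with a median difference of 0.13, where 3.44% of all genes passed. The 1 gene was Lcn2, which encodes lipocalin 2, a secreted protein that binds bacterial siderophores and is abundant in neutrophils. It stood at 0.66, 1.26 and 1.39 in lymphedema, −1.58, −0.60 and 0.68 in sham and −1.78, −1.74 and −1.66 in normal skin, a log2 difference between lymphedema and normal skin of 2.83 ± 0.436 (SE, limma adjusted p = 0.0137). The lymphedema arrays lay above the normal ones by more than their spread, and sham 3 reached the lowest lymphedema value.

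The largest differences that did not pass were those of Ltf (lactoferrin, 0.77, limma adjusted p = 0.111), Iscu (a scaffold of iron-sulfur cluster assembly, −0.59), Fbxl5 (which marks iron regulatory protein 2 for degradation when iron is plentiful, 0.57) and Steap3 (an endosomal ferrireductase, 0.51). The iron exporter ferroportin (Slc40a1) differed by 0.11 (95% interval −0.45 to 0.66) and transferrin (Trf) by 0.05 (−0.33 to 0.43).

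Of 24 genes of heme synthesis, breakdown and transport measured among 33, 1 rose and none fell in lymphedema against normal skin, with a median of 0.20, where again 3.44% of all genes passed. It was Lrp1, a large endocytic receptor that takes up hemopexin with its heme, among many other ligands. Lrp1 levels were 1.48, 1.41 and 1.22 in lymphedema, 1.09, 0.85 and 0.91 in sham and 0.66, 0.34 and 0.18 in normal skin, which did not overlap (log2 difference between lymphedema and normal skin 0.97 ± 0.181, SE, limma adjusted p = 0.0268). Ambp (0.71, limma adjusted p = 0.0777), which encodes the heme-binding alpha-1-microglobulin, Tspo (0.70), Abcg2 (0.50) and the constitutive heme oxygenase Hmox2 (0.48) did not pass. Neither did Alas1 (0.32), which starts heme synthesis in most cells, or ferrochelatase, Fech (−0.15), which ends it. Levels of Ambp lay far below the embryo, at −5.097, −4.907 and −5.414 in lymphedema and −5.894, −5.715 and −5.944 in normal skin.

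Among selenoproteins and the genes that make selenocysteine, 26 were measured of 35, of which 2 rose and 1 fell in lymphedema against normal skin, with a median of 0.32 (3.44% of all genes passed). Gpx1, the cytosolic glutathione peroxidase, was at −0.06, 0.28 and 0.14 in lymphedema, −0.21, −0.41 and −0.02 in sham and −0.67, −0.67 and −0.71 in normal skin, a log2 difference between lymphedema and normal skin of 0.81 ± 0.172 (SE, limma adjusted p = 0.0339). Selenow, a small redox selenoprotein, was at 0.14, 0.34 and 0.23 in lymphedema, −0.35, −0.50 and −0.17 in sham and −0.71, −1.04 and −0.61 in normal skin, a difference of 1.02 ± 0.18 (SE, limma adjusted p = 0.023). On both genes the sham arrays lay above the normal ones, and for Gpx1 sham 3 also lay above the lowest lymphedema array. Txnrd3, a thioredoxin reductase best known from testis, fell to 1.13, 1.27 and 1.54 in lymphedema, against 2.26, 1.92 and 1.88 in sham and 2.35, 2.26 and 1.82 in normal skin (log2 difference between lymphedema and normal skin −0.83, limma adjusted p = 0.0494). Secisbp2l (−0.80), Selenon (0.63), Selenoh (0.61) and Selenok (0.58) did not pass. Gpx4, the peroxidase that acts on lipid hydroperoxides, differed by 0.10 (95% interval −0.36 to 0.55). Some of these genes were discussed by the study on these same arrays, so their direction here is not independent evidence.

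None of 15 measured targets of NRF2, a transcription factor that drives both ferritin genes and Hmox1 under oxidative stress, passed between lymphedema and normal skin, with a median of 0.19. Of all genes 3.44% passed in this comparison, so none among 15 is near that share. The largest differences were those of Aldh3a1 (−0.97, limma adjusted p = 0.0778), Prdx1 (0.73), Abcc1 (−0.64) and Me1 (−0.62). In the other comparisons no gene of these 4 lists passed. List medians between lymphedema and sham were 0.08 for iron, 0.06 for heme, 0.22 for selenium and 0.15 for NRF2 targets, beside 0.06 over all genes. Between sham and normal skin they were 0.08, 0.11, 0.12 and 0.21, beside 0.06.

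**Figure D5:**
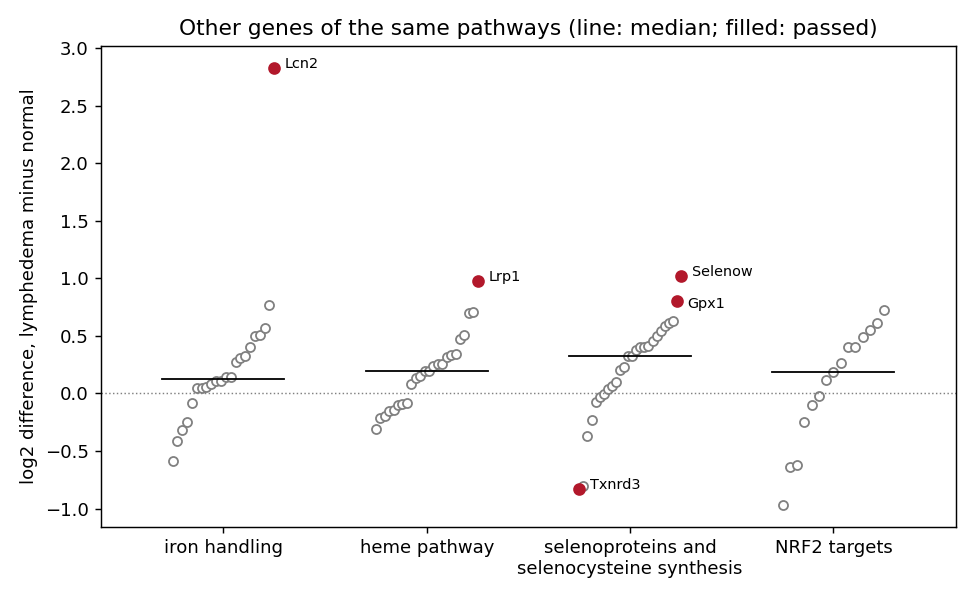
Difference between lymphedema and normal skin, in log2 units (vertical axis), for every measured gene of the iron, heme, selenium and NRF2 lists, with the median of each list as a line. Filled points passed at an adjusted p under 0.05 in limma: Lcn2, Lrp1, Gpx1 and Selenow were higher and Txnrd3 was lower.

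The calls between lymphedema and normal skin rested on all the arrays of these states. The number of the 6 genes that passed in limma was 0 (4 at an unadjusted p under 0.05) without normal 1, normal 2, lymphedema 1 or lymphedema 2, and 1 (Selenop) without normal 3 or lymphedema 3, against 4 with all arrays or without any single sham array. Missing values also split the arrays into 2 sets: 186 features had values on normal 1 to 3 and lymphedema 1 and on none of the other 5 arrays, and 1 feature had the reverse. With these sets as a block, where the comparison rests on lymphedema 1, the log2 differences between lymphedema and normal skin were 1.04 for Ftl1 (limma adjusted p = 0.346), 0.82 for Fth1 (0.372), 1.57 for Selenop (0.199) and −1.52 for Selenbp1 (0.296). Under quantile normalization 112 genes were higher and 72 lower between lymphedema and normal skin, against 245 higher and 52 lower with centering.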

How the data were processed

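RNA of distal tail skin from 9 pools was hybridized against embryo RNA on 2-color cDNA arrays. The authors extracted features with GenePix and processed them in Expressionist with background subtraction and dye normalization. For their tests they also left out features with a low reference signal and imputed missing values. No signal filter was applied here, so features that the study left out may be among those tested. The deposited values are log ratios, 1 per feature and array, read here as log2 of embryo over tail skin, and their sign was turned. The log base and the authors' centering are not stated. Medians of the deposited columns ran from −0.121 to −0.002, and 1.34% to 12.6% of values were missing on an array. Correlations between arrays were 0.818 to 0.96. The number of arrays limits the precision.

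The annotation names 20678 features by 1 gene, 953 by several and leaves 20993 unnamed. Each array was centered on its median. Clones with a value on all 9 arrays were averaged per gene, and limma 3.58.1 (R 4.3.3; lmFit, eBayes) was fitted to all 9 arrays with group as the only term. Values of p are two-sided and adjusted by Benjamini-Hochberg over 8644 genes, or over 30702 features for clones. Whether the pools were processed on separate days is not given in the sources used here. The steps were tested on simulated data. Matplotlib 3.10.9 (Python 3.11.15) drew the figures.

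The 6 genes and all lists were chosen with earlier results of these data known. Named genes are the 6 genes, list genes that passed, up to 4 more of each pathway list by size of difference, and the 3 genes nearest to each of the 6. Slc40a1, Trf, Alas1, Fech and Gpx4 were added after their values were seen. The fit was repeated with uncentered arrays, with arrays brought to a common median absolute deviation, after quantile normalization, on clones measured on at least 2 of 3 arrays of each state (missing values left out, or filled from 10 neighbors), on the arrays of the compared states alone, by SAM at 5% with 20 permutations, and with the replicate number as a block, array sets as a block, the median over clones or each array left out in turn. Hmox1 clone BG064393 alone was added after seeing the data.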

Additional observations from a re-analysis of the deposited data

How the results depend on the processing

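Directions between lymphedema and normal skin held for Ftl1 (1.00 to 1.40), Fth1 (0.82 to 1.33), Selenop (0.93 to 1.73) and Selenbp1 (−1.62 to −1.33) under every alternative run, and the calls were kept in 10, 12, 13 and 12 of 19. The 297 genes called became 184 with quantile normalization, 842 with arrays of the 2 groups only, 1817 with SAM, 145 with the replicate block, 0 in limma with the array sets as a block (979 at an unadjusted p under 0.05) and 11 (without lymphedema 2) to 623 (without sham 3) with 1 array left out. Of the 6 genes, 0 passed with the array sets as a block and 0 to 4 with 1 array left out. Under the replicate block 3 passed (Ftl1 adjusted p = 0.0532 in limma). Deviations from the state means correlated at −0.244 to 0.279 between same-numbered arrays. With 3 arrays per state this cannot decide whether the numbers pair the samples. Ftl1 also failed with quantile normalization (0.054) and Selenop with 2 of 3 values and no imputation (0.0571). Between lymphedema and sham, the 2 genes called became 1 without centering, with quantile normalization, with 2 of 3 values per group (imputed or not), under the replicate block and with array sets as a block, 9 with scaling, 0 with the 2 groups only (462 at an unadjusted p under 0.05) or the second array set only (302), 4 with SAM, and 0 to 96 with 1 array left out. Between sham and normal skin, the 0 genes called (685 unadjusted) became 21 with SAM and 0 to 12 with 1 array left out. The 6 genes gave no call in these comparisons.

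Some values of Tfrc and Hmox1 changed sign. Tfrc between lymphedema and normal skin was −0.15 with quantile normalization, and between lymphedema and sham −0.0049 under it. Between sham and normal skin it was 0.068 with array sets as a block, 0.011 with the median over clones and −0.17 to 0.024 with 1 array left out. The settings with 2 of 3 values averaged both Hmox1 clones, M33203 and BG064393, where the main fit used M33203 alone. Between lymphedema and normal skin Hmox1 was 0.32 with 2 of 3 values, 0.42 imputed and 1.03 on clone BG064393. Between lymphedema and sham it was 0.021 imputed, 0.34 on clone BG064393 and −0.49 to 0.060 with 1 array left out. Between sham and normal skin Hmox1 was −0.26 to 0.28 with 1 array left out. Why the Hmox1 clones differ, and the causes of the other sign changes, were not tested.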

Other observations

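The genes whose course over the 9 arrays lay nearest to each of the other 4 genes were found by the root mean square of the log2 difference between profiles, each taken around its own mean. For Selenop they were Reg3g (0.176), Gimap4 (0.178) and Col27a1 (0.184), against a median of 0.67 over all genes. For Selenbp1 they were Krtap13 (0.261), a hair keratin-associated protein gene, 2310034C09Rik (0.271) and Relt (0.289), against a median of 0.79. For Tfrc they were Snrpb2 (0.0838), Nipsnap1 (0.0872) and Cacybp (0.0887), against a median of 0.32. For Hmox1 clone M33203 they were 1700007E05Rik (0.0964), Slc5a4b (0.127) and Pml (0.133), against a median of 0.435. The profiles of Tfrc and this Hmox1 clone were flat, with a root mean square around their own means of 0.188 and 0.328. For Selenop and Selenbp1 it was 0.661 and 0.72, so the distances of different genes are not on a like footing. Selenop lay at 0.269 from Ftl1 and 0.295 from Fth1, and at 1.32 from Selenbp1. These distances describe 9 arrays that share the same 3 states.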
